A study of Homo sapiens with 6 samples.

Results

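PLEK, TUBB1, ITGA2B and FLI1 are 4 genes of the megakaryocyte and platelet programme, taken by gene symbol from a deposited table of 16315 genes in F36P, a human leukaemia cell line with erythroid features. All 4 were found, and all 4 were among the 13841 genes tested between the guides. They were chosen by their biological role with their levels and fold changes between the guides already known, so those values are given here as a description, with no test. The knockout cells, called sgHDAC7, were F36P cells transduced with a CRISPR guide against HDAC7, a class IIa histone deacetylase, and are labelled HDAC7 knockout. The control cells, called sgNT, were F36P cells transduced with a non-targeting guide and are labelled WT. Both carried puromycin resistance and were taken for bulk RNA-seq after 4 days in 1 µg/ml puromycin, with 3 libraries in each group. Whether the cells were a pool or 1 clone is not given in the sources used here.

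Megakaryocytes are the bone marrow cells that shed platelets, and they share a progenitor with red cells. FLI1 is an ETS-family transcription factor that promotes the megakaryocyte fate and restrains the erythroid one. ITGA2B encodes the alpha IIb chain of the platelet fibrinogen receptor, which works only as a pair with the beta 3 chain from ITGB3. PLEK encodes pleckstrin, the main platelet substrate of protein kinase C, and TUBB1 encodes the beta-1 tubulin of the microtubule coil that gives platelets their disc shape. The series asks how HDAC7 bears on erythroid differentiation, and the 2 guides are its only contrast.

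Across the series, library totals ran from 11645003 to 12521195 counts in sgHDAC7 and from 10039693 to 11149179 in sgNT, and 3 counts in a library equal 0.24 to 0.299 CPM, the counts of a gene scaled to a common library size. HDAC7 averaged 226 ± 28.0 CPM in sgHDAC7 against 457 ± 6.50 in sgNT (SD, n = 3 each; edgeR log2 fold change -1.02 ± 0.09 SE, adjusted p = 0.00139). edgeR's quasi-likelihood test called 396 of 13841 genes at an adjusted p under 0.05, which is 2.86% of them, with 1.16% higher and 1.7% lower in sgHDAC7. On the second principal component the 2 replicate 1 libraries were separate from the other 4. That component held 32.1% of the variance. Ratios are therefore also given within each replicate number, and some fits add a term for replicate 1 or use replicates 2 and 3 alone. With the term, 800 of 13841 tested genes were higher in sgHDAC7 and 943 lower. Replicates 2 and 3 alone gave 1356 higher and 1505 lower of 13844 genes. The labels call the libraries biological replicates without saying that the cultures were grown separately, so p-values measure the spread between these libraries.

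Of the defining markers of the erythroid state, all 13 listed genes were in the table, with a summed level of 17170 to 24467 CPM in sgHDAC7 against 11784 to 18085 in sgNT. The groups overlapped because sgHDAC7 replicate 1 was low, and the log2 ratio of the sums was 0.54, 0.26 and 0.48 within replicates 1, 2 and 3. Of 10 defining megakaryocyte markers, 6 were in the table, with a sum of 502.9 to 621 CPM in sgHDAC7 against 532 to 658 in sgNT. The log2 ratio of these sums was -0.08, -0.02 and -0.12 within replicates 1, 2 and 3. Most of each sum was ITGA2B. GP1BB, PF4, PPBP and VWF are not analysed here. Cells of a type that became fewer and cells that each hold less of an RNA cannot be told apart in bulk samples.

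The stretches before the start of transcription are shown for the 2 genes that were higher in every sgHDAC7 library, PLEK and TUBB1, and for ITGA2B, which was the most abundant of the 4. They come from RefSeq (GRCh38.p14), and 3 of the 4 genes matched. Each line gives the bases that lie before both the RefSeq and the GENCODE 29 start, 5′ to 3′ on the gene's strand, with capitals marking matches to the motifs described next. The PLEK stretch is chr2:68365032-68365172 (plus strand), the TUBB1 stretch chr20:59019179-59019253 (plus strand) and the ITGA2B stretch chr17:44389650-44389899 (minus strand).
PLEK: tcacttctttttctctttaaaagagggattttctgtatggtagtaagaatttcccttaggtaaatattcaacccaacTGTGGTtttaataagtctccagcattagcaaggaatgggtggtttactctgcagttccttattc
TUBB1: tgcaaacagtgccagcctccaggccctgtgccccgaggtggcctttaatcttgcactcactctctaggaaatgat
ITGA2B: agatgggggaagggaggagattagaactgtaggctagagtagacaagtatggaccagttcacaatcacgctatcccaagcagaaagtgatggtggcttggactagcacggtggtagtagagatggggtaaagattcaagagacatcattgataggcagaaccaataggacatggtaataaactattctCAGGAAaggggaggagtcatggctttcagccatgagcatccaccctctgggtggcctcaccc

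Both strands of the 250 bases before the RefSeq start were searched for letters bound by 3 families of megakaryocyte factors. These were AGATAA or TGATAA for GATA factors, CCGGAA or CAGGAA for ETS factors, and TGTGGT for RUNX factors. The PLEK window held TGTGGT once, 173 to 168 bases before the RefSeq start, and such a match was present in 11% of 35116 RefSeq windows of the same length. The ITGA2B window held CAGGAA once, 62 to 57 bases before the RefSeq start, and 35.7% of windows held an ETS match. Neither AGATAA nor TGATAA was found in the 3 windows, against 14.6% of all windows with a match, and the TUBB1 window held none of the 3 motifs. Other GATA forms were not searched for, and the ITGA2B stretch holds TGATAG. The ITGA2B window stops at 44389650, short of the GENCODE start at 44389505, and the bases between were not searched. G and C made up 44.8% of the PLEK window, 57.6% of the TUBB1 window and 48.8% of the ITGA2B window, with a median of 58% over all windows. GENCODE exons cover 175 of the 250 TUBB1 bases, 109 of the PLEK bases and 0 of the ITGA2B bases. The TUBB1 values thus describe mostly exon sequence.

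PLEK (chromosome 2, 68365173 to 68397453, plus strand, GRCh38, ENSG00000115956.9) showed the widest gap of the 4 genes. It had 95.8, 68.4 and 69.5 CPM in sgHDAC7 replicates 1, 2 and 3, against 20.8, 13.4 and 11.6 CPM in sgNT replicates 1, 2 and 3. The lowest sgHDAC7 library thus lay well above the highest sgNT library, and replicate 1 was the highest of its group on both sides. The raw counts behind these levels were 1192, 793 and 860 in sgHDAC7 and 211, 149 and 122 in sgNT. The log2 fold change was 2.36 ± 0.21 (SE), or 5.12-fold, and PLEK held place 5 among the positive fold changes of all 13841 tested genes. The log2 ratio was 2.18 between the replicate 1 libraries, 2.31 between the replicate 2 libraries and 2.54 between the replicate 3 libraries. Leaving out single libraries gave log2 fold changes of 2.17 to 2.64.

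TUBB1 (chromosome 20, 59019254 to 59026654, plus strand, ENSG00000101162.3) was the other gene with no overlap between the groups. Its level was 27.2, 26.9 and 22.1 CPM in the 3 sgHDAC7 libraries, against 13.5, 17.1 and 15.9 CPM in the 3 sgNT libraries. The sgHDAC7 libraries were all higher, and replicate 1 was the lowest of the sgNT group and the highest of the sgHDAC7 group. The log2 fold change was 0.71 ± 0.14 (SE), or 1.63-fold. The log2 ratio was 0.98 between the replicate 1 libraries, against 0.64 and 0.46 between those of replicates 2 and 3. On replicates 2 and 3 alone the log2 fold change was 0.57. TUBB1 shares 1188 exon bases, 34% of its exons, with ATP5F1E on the opposite strand, a subunit gene of the mitochondrial ATP synthase. Strand use is not given in the sources used here, so reads of the 2 genes in those bases cannot be told apart. ATP5F1E itself averaged 44.3 ± 1.02 CPM in sgHDAC7 against 38.5 ± 4.55 in sgNT (log2 fold change 0.20 ± 0.10, edgeR adjusted p = 0.316).

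ITGA2B (chromosome 17, 44372180 to 44389505, minus strand, ENSG00000005961.18) was abundant under both guides. It had 511, 443 and 424 CPM in the sgHDAC7 libraries and 557, 469 and 481 CPM in the sgNT libraries. The groups overlapped, because sgHDAC7 replicate 1 lay above sgNT replicates 2 and 3. The log2 fold change was -0.13 ± 0.09 (SE), so the sgHDAC7 mean was 91.4% of the sgNT mean. The log2 ratio within replicate numbers was -0.12, -0.08 and -0.18, each below 0.

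FLI1 (chromosome 11, 128686535 to 128813267, plus strand, ENSG00000151702.16) had 83.8, 63.8 and 65.9 CPM in the sgHDAC7 libraries and 98.3, 62.6 and 69.3 CPM in the sgNT libraries. The groups overlapped, and the 2 replicate 1 libraries were the highest of the 6. The log2 fold change was -0.11 ± 0.17 (SE). Without sgNT replicate 1 it was 0.11, so its sign rests on that library. The antisense gene SENCR, which shares 162 exon bases with FLI1, averaged 1.49 ± 0.38 CPM in sgHDAC7 against 1.54 ± 0.78 in sgNT. These 162 bases are 1.98% of the FLI1 exons.

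**Figure D1:**
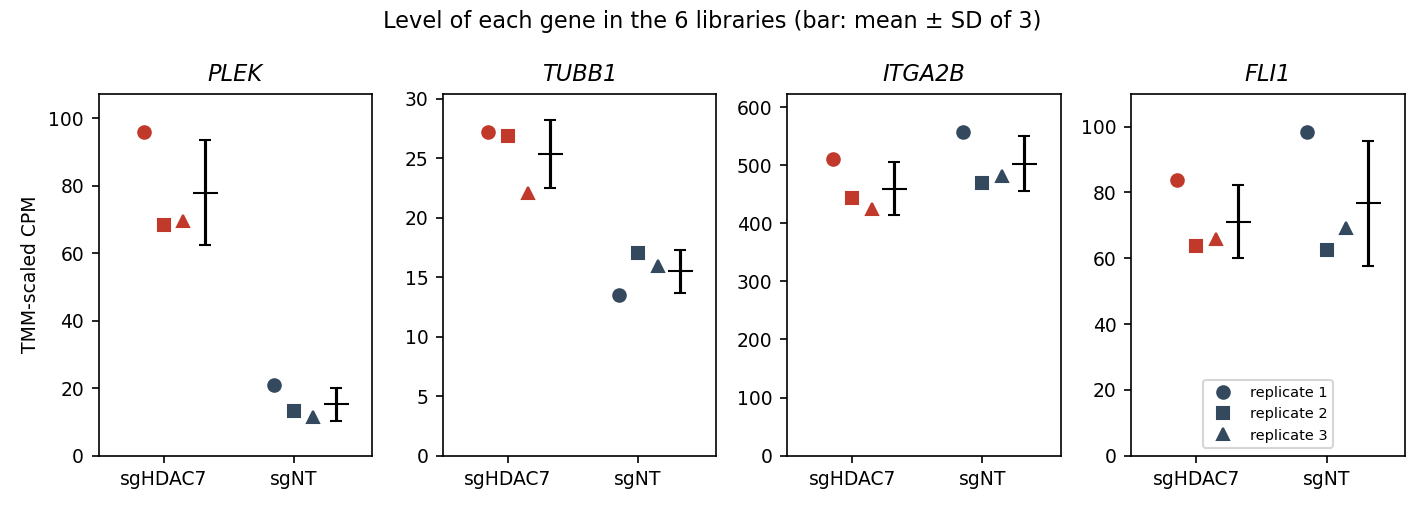
TMM-scaled CPM (y axis, from 0) of PLEK, TUBB1, ITGA2B and FLI1 in the 3 sgHDAC7 (red) and 3 sgNT libraries (dark), with the replicate number as the marker and a bar for the mean ± SD. PLEK and TUBB1 do not overlap between the groups, while ITGA2B and FLI1 do, and replicate 1 is the highest library of its group for PLEK, ITGA2B and FLI1.

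The groups did not overlap for PLEK and TUBB1, both higher in sgHDAC7, and the same held for 13% of all tested genes in that direction. Since the guide contrast was known when the 4 were picked, nothing is read from that count.

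Differences between replicates, which the choice of genes did not use, were also uneven among the 4. In sgHDAC7 and sgNT alike, replicate 1 was above replicates 2 and 3 for PLEK, ITGA2B and FLI1, as it was for 19.5% of the tested genes. The mean of the 2 replicate 1 libraries exceeded that of the other 4 by 0.60 on the log2 scale for PLEK, 0.47 for FLI1 and 0.23 for ITGA2B. The value for TUBB1 was -0.06. Of the tested genes, 97.8% had a lower value than PLEK and 95.8% a lower one than FLI1. GATA2, a progenitor factor of both lineages, had the same shape. GATA2 had 824, 539 and 531 CPM in sgHDAC7 against 824, 526 and 549 in sgNT. Within groups, the SD of log2 CPM was 0.36 for PLEK and 0.28 for FLI1, against medians of 0.11 and 0.10 in the 500 genes nearest to each in level. For TUBB1 it was 0.17 and for ITGA2B 0.14, with 0.15 and 0.08 among their neighbours.

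Per kilobase of exon, ITGA2B was the highest of the 4 in each group. In sgHDAC7 the levels were 82.7 ± 8.26 CPM per kb for ITGA2B, 23.5 ± 4.69 for PLEK, 8.71 ± 1.35 for FLI1 and 7.26 ± 0.82 for TUBB1 (SD, n = 3). In sgNT they were 90.5 ± 8.50 CPM per kb for ITGA2B, 9.39 ± 2.32 for FLI1, 4.60 ± 1.48 for PLEK and 4.43 ± 0.52 for TUBB1. PLEK and TUBB1 overlapped across the sgNT libraries, and FLI1 lay above both in each of them. In sgHDAC7 PLEK stood above FLI1, and FLI1 (7.81 to 10.3 CPM per kb) lay just above TUBB1 (6.31 to 7.77). Among 12503 tested genes with a length, 96.5% were below ITGA2B in sgNT, 59.1% below FLI1, 39.7% below PLEK and 38.9% below TUBB1. The order of the 4 was the same with the length of the longest transcript.

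Within its family, PLEK had a single relative. PLEK2, the pleckstrin homologue of wider tissue range, had 1, 7 and 7 counts in sgHDAC7 and 2, 5 and 1 counts in sgNT, near the floor of 3 counts, and was below the filter for testing. PLEK therefore made up 98.8% ± 0.90 of the pair's level per length in sgHDAC7 and 96.6% ± 2.71 in sgNT.

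TUBB1 was a minor beta tubulin in these cells, at 0.88% ± 0.09 of the summed level per length of 8 beta tubulin genes in sgHDAC7 and 0.65% ± 0.10 in sgNT. The general isotype TUBB held 64.4% ± 0.65 in sgHDAC7 and 66.8% ± 0.75 in sgNT, and TUBB4B held 31.5% ± 0.66 in sgHDAC7 and 29.1% ± 0.58 in sgNT. TUBB6 followed with 2.35% ± 0.70 in sgHDAC7 and 2.73% ± 0.53 in sgNT. The general isotypes are alike in coding sequence, so how the counting split their reads is uncertain. Of the 7 other beta tubulins tested, 1 rose and 6 did not pass, and the median log2 fold change was 0.38 against -0.00156 over all tested genes. TUBB4B was the one that rose, with 551 ± 20.3 CPM in sgHDAC7 against 424 ± 23.9 in sgNT (log2 fold change 0.38 ± 0.07, edgeR adjusted p = 0.0226). It passed in only 1 of the 6 fits without a single library, the one without sgNT replicate 1. The log2 fold change was 0.21 ± 0.07 for TUBB, which did not pass (edgeR adjusted p = 0.13) but was higher in all 3 sgHDAC7 libraries. TUBB passed with a term for replicate 1 (adjusted p = 0.0196), where 2 of the 7 were higher, and its adjusted p ran from 0.00167 to 0.324 over 17 alternatives.

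ITGA2B held the largest share of the integrin alpha chain level per length, 53.8% ± 2.11 in sgHDAC7 and 55.4% ± 3.18 in sgNT over 12 genes. ITGA4, an alpha chain of leukocyte adhesion, held 33.3% ± 2.71 in sgHDAC7 and 27.7% ± 3.20 in sgNT. The myeloid alpha chain ITGAM was the single call among the 10 other alpha chains tested, with 25.0 ± 4.25 CPM in sgHDAC7 against 47.9 ± 11.8 in sgNT (log2 fold change -0.94 ± 0.18, edgeR adjusted p = 0.0305). ITGAM failed without replicate 2 or 3 of either group. ITGAV, the other alpha chain that pairs with beta 3, did not pass (log2 fold change -0.42 ± 0.11, edgeR adjusted p = 0.0799). It passed as lower with a term for replicate 1 (adjusted p = 0.015), and its adjusted p ran from 0.00857 to 0.261 over 17 alternatives. It was named after its values were seen. With that term 1 of the 10 alpha chains was higher and 2 were lower.

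The partner chain ITGB3 had 62.0, 41.4 and 40.6 CPM in sgHDAC7, against 47.5, 24.9 and 24.3 CPM in sgNT. Each sgHDAC7 library was above the sgNT library of its number, but sgNT replicate 1 lay within the sgHDAC7 range. Its log2 fold change, 0.58 ± 0.26, did not pass (edgeR adjusted p = 0.261), and with a term for replicate 1 it was 0.61 (adjusted p = 0.00134). Over 17 alternatives the adjusted p of ITGB3 ran from 4.01e-06, on replicates 2 and 3 alone, to 0.545. Per length, ITGA2B exceeded ITGB3 by 6.53, 8.47 and 8.25 times in the sgHDAC7 libraries, against 9.28, 14.9 and 15.7 times in the sgNT libraries. The ratio was lower in every sgHDAC7 library than in any sgNT library, with a narrow gap of 8.47 against 9.28. Among single tested genes, 12.2% were lower in every sgHDAC7 library, and the share over such ratios was not computed. The ratio was not tested, and the contrast of ITGA2B was known when it was picked. Of the proteins that switch this integrin on from inside the cell, TLN1 (talin) had a log2 fold change of 0.20 ± 0.07 and FERMT3 (kindlin-3) of 0.06 ± 0.14, and neither passed (edgeR adjusted p = 0.178 and 0.856).

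FLI1 ranked in place 9 of 21 measured ETS factors per length in sgNT, with 2.78% ± 0.25 of their sum in sgHDAC7 and 2.81% ± 0.51 in sgNT. SPI1, the myeloid factor PU.1, led with 20.3% ± 1.25 in sgHDAC7 and 21.7% ± 0.34 in sgNT, ahead of ETS2 and ELF1. Of the 20 other ETS factors tested, 1 rose and 1 fell, and with a term for replicate 1, 4 were higher and 6 lower. ETV5 fell to 21.2 ± 2.74 CPM in sgHDAC7, against 49.2 ± 6.38 CPM in sgNT (log2 fold change -1.22 ± 0.13, edgeR adjusted p = 0.00275), and passed in all 6 fits without a single library. SPIB, a relative of SPI1, rose to 6.53 ± 0.45 CPM in sgHDAC7, against 3.36 ± 0.14 CPM in sgNT (log2 fold change 0.96 ± 0.19, edgeR adjusted p = 0.033). SPIB passed in 1 of those 6 fits, the one without sgNT replicate 1.

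ERG, the closest relative of FLI1 and a factor of stem cells and megakaryocytes, had 17.0, 7.50 and 8.32 CPM in sgHDAC7, against 43.2, 18.9 and 17.5 CPM in sgNT. All 3 sgHDAC7 libraries were lower, although sgHDAC7 replicate 1 came close to sgNT replicate 3. The log2 fold change of -1.27 ± 0.39 did not pass (edgeR adjusted p = 0.116), and with a term for replicate 1 it was -1.26 (adjusted p = 4.6e-05). Over 17 alternatives the adjusted p of ERG ran from 2.2e-06, on replicates 2 and 3 alone, to 0.348. The log2 ratios within replicate numbers were -1.32, -1.28 and -1.02. FLI1 and ERG thus shared the high replicate 1 and had different ratios between the guides, a difference that was not tested.

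**Figure D2:**
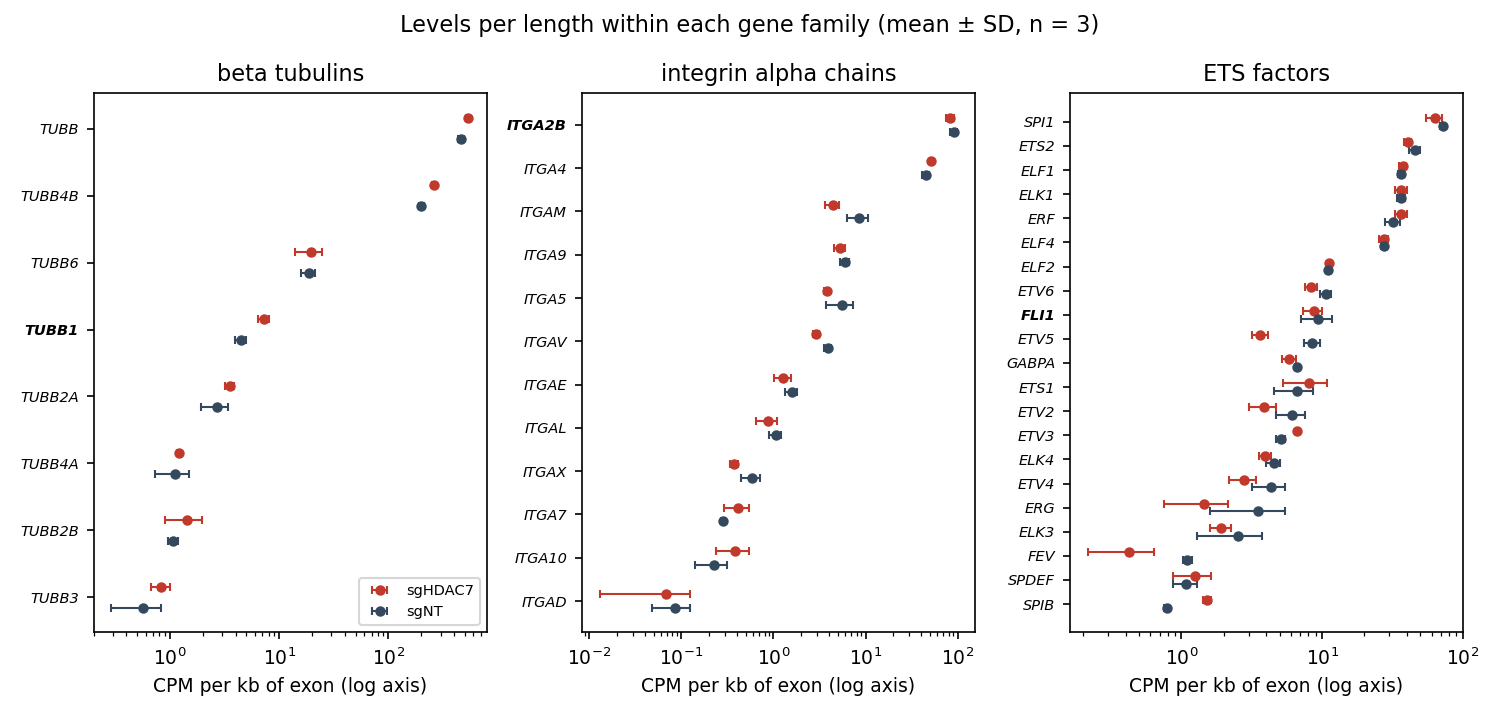
Level per kilobase of exon (x axis, log scale) of the measured beta tubulins, integrin alpha chains and ETS factors, as mean ± SD of 3 sgHDAC7 (red) and 3 sgNT (dark) libraries, with TUBB1, ITGA2B and FLI1 in bold. ITGA2B leads its family, while in sgNT TUBB1 is in place 4 of 8 and FLI1 in place 9 of 21.

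**Figure D3:**
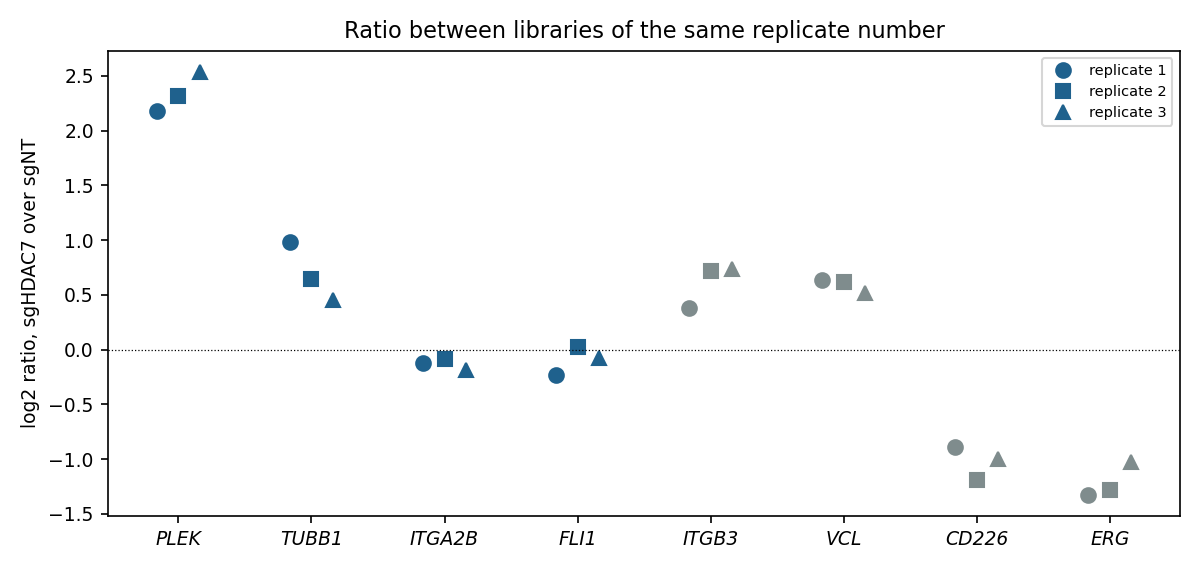
Log2 ratio of sgHDAC7 over sgNT (y axis) between the libraries of each replicate number, for the 4 genes (blue) and for ITGB3, VCL, CD226 and ERG (grey). PLEK lies between 2.18 and 2.54 in all 3, TUBB1 between 0.46 and 0.98, and ITGA2B and FLI1 near 0.

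The wider programme was read from 6 lists by role with 140 genes in all, none of them the 4 genes above. The table held 122 of them, and 116 passed the filter of a mean of 1 CPM. Of these 116, 4 rose, 5 fell and 107 did not pass, so 7.76% were called against 2.86% of all tested genes. The lists were drawn up with earlier results of these data known, so nothing is read from the gap between these 2 shares. The median log2 fold change of the 116 was -0.04, against -0.00156 over all tested genes. In 13.8% of them all sgHDAC7 libraries were higher and in 15.5% all were lower, against 13% and 12.2% of all tested genes. Upper quartile scaling left 4 higher and 2 lower. The 9 calls fell to 1 without replicate 2 or 3 of either group, and were 19 without sgNT replicate 1. With a term for replicate 1, 10 were higher and 21 lower, and on replicates 2 and 3 alone 13 were higher and 25 lower. These fits called more genes over the whole table too. The term gave 800 higher and 943 lower of 13841, and replicates 2 and 3 alone 1356 and 1505 of 13844. The counts given for single lists in these 2 fits stand beside the same totals.

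Among the lineage transcription factors, 1 of 20 rose and none fell by edgeR, while 4 had an unadjusted p under 0.05. With a term for replicate 1, 2 were higher and 2 lower. MAFG, the small MAF partner of NFE2, rose 1.24-fold to 139.9 ± 5.02 CPM in sgHDAC7, against 113 ± 3.61 CPM in sgNT (edgeR adjusted p = 0.0366). NFE2, which drives platelet release and TUBB1 expression, had 291 ± 17.2 CPM in sgHDAC7 against 302 ± 34.9 in sgNT (log2 fold change -0.05 ± 0.09). GATA1, RUNX1, GFI1B and the GATA1 cofactor ZFPM1 had log2 fold changes of 0.03 ± 0.08, 0.11 ± 0.06, 0.17 ± 0.08 and 0.14 ± 0.12. None of these 5 passed (edgeR adjusted p from 0.298 to 0.891).

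The cytoskeletal list held 2 rises and no fall among 19 tested genes, and 2 higher and 1 lower with a term for replicate 1. VCL, which encodes the adhesion protein vinculin, had 381, 320 and 297 CPM in sgHDAC7 against 245, 209 and 208 in sgNT. The groups were well apart, and the log2 fold change was 0.59 ± 0.10 (edgeR adjusted p = 0.0226). DIAPH1, a formin that links actin and microtubules, rose 1.25-fold to 617 ± 20.8 CPM in sgHDAC7, against 493 ± 18.6 CPM in sgNT (edgeR adjusted p = 0.029). TUBA4A, the alpha tubulin of platelets, had 115 ± 26.0 CPM in sgHDAC7 against 121 ± 38.0 in sgNT and did not pass (edgeR adjusted p = 0.872).

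Surface receptors held 3 falls and no rise among 23 tested genes by edgeR, and DESeq2 called 6 of them. With a term for replicate 1 this list held 2 higher and 5 lower, and on replicates 2 and 3 alone 2 higher and 7 lower. The 2 higher with the term were ITGB3 and the scavenger receptor CD36 (adjusted p = 0.00134 and 0.000492), and CD36 was named after its values were seen. CD226, an adhesion receptor of platelets and lymphocytes, had 17.8, 15.1 and 16.7 CPM in sgHDAC7, against 33.4, 35.2 and 34.0 CPM in sgNT. It was 2.07-fold lower in sgHDAC7 (log2 fold change -1.05 ± 0.11, edgeR adjusted p = 0.0023) and the one call of the 9 that passed in all 6 fits without a single library. MPIG6B, an inhibitory receptor needed for platelet formation, was 1.34-fold lower, and PEAR1, a platelet aggregation receptor, 1.28-fold lower (edgeR adjusted p = 0.0493 and 0.0461). The von Willebrand factor receptor chains GP1BA and GP9 and the collagen receptor GP6 did not pass. GP1BA had 22.4 ± 2.77 CPM in sgHDAC7 against 23.8 ± 3.10 in sgNT, and GP9 and GP6 averaged at most 11.3 CPM in a group.

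Platelet signalling genes held 1 rise and 1 fall among 27 tested. In this list 3 were higher and 9 lower with a term for replicate 1, and 2 higher and 10 lower on replicates 2 and 3 alone. Both fits also called more genes over the whole table, as given above. BIN2, a membrane-bending protein of blood cells, rose 1.34-fold to 98.4 ± 3.09 CPM in sgHDAC7, against 73.3 ± 1.65 CPM in sgNT (edgeR adjusted p = 0.0165). RGS18, a brake on G protein signals in platelets, was 1.51-fold lower, at 24.0 ± 3.70 CPM in sgHDAC7 against 36.3 ± 3.89 in sgNT (edgeR adjusted p = 0.0477). In the thrombopoietin pathway SH2B3, an inhibitor of JAK2 signalling, was 1.63-fold lower (edgeR adjusted p = 0.0226), the single call of 11 genes. Of the 16 tested genes of granule cargo and assembly, 0 passed by edgeR, DESeq2 or limma, and 4 had an unadjusted p under 0.05 by edgeR. With a term for replicate 1 this list held 1 higher and 3 lower. BIN2, MPIG6B, RGS18 and VCL failed without replicate 2 or 3 of either group. MAFG, DIAPH1, PEAR1 and SH2B3 passed in only 1 of the 6 fits without a single library, the one without sgNT replicate 1.

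**Figure D4:**
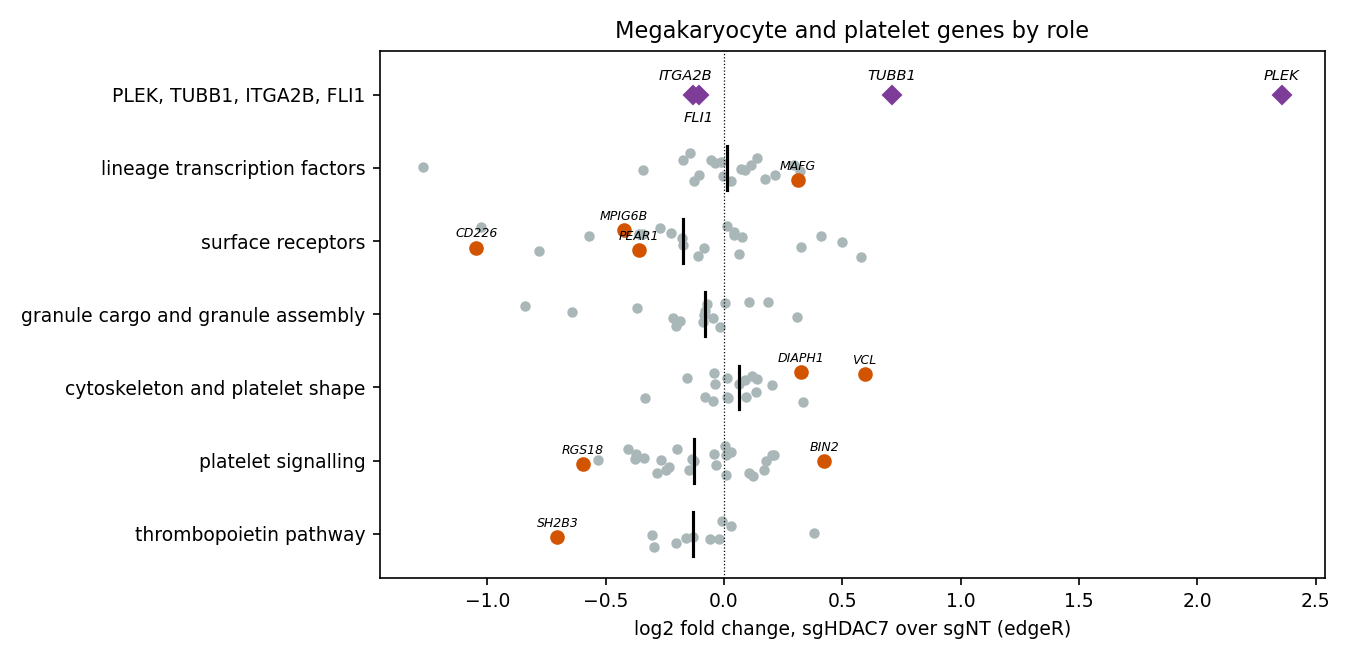
edgeR log2 fold change of sgHDAC7 over sgNT (x axis) for the 4 genes (purple) and for each tested gene of the 6 role lists (grey; orange and named where the adjusted p is under 0.05), with a black line at the list's median. PLEK lies at 2.36, beyond every listed gene, and the list medians lie between -0.17 and 0.06.

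The genes most like each of the 4 were taken by Pearson's r of log2 CPM over the 6 libraries, which are the same libraries for every gene, among 10910 other genes with a mean of at least 5 CPM. For PLEK they were TGFB3 (r = 0.998), UBAP1 (0.998) and KLF16 (0.996). TGFB3, a transforming growth factor beta, had 26.2, 22.5 and 23.5 CPM in sgHDAC7 against 15.7, 13.5 and 12.5 in sgNT, a narrower span than that of PLEK. UBAP1 had 53.2, 52.3 and 52.6 CPM in sgHDAC7 against 48.8, 47.6 and 47.5 in sgNT. For TUBB1 they were GNAQ (0.995), HPS6 (0.991) and SMAD2 (0.987). For ITGA2B they were PDGFC (0.994), NBEAL2 (0.993) and ZNF792 (0.992). NBEAL2 had 165, 136 and 131 CPM in sgHDAC7 against 196, 152 and 154 in sgNT. For FLI1 they were SNRPD1 (0.992), CLEC11A (0.987) and DOCK1 (0.987). An r over 0.9 was reached with PLEK by 4.67% of these genes, with TUBB1 by 2.51%, with ITGA2B by 2.64% and with FLI1 by 2.38%. Since r takes in the guide contrast, which was known when the 4 were picked, nothing about shared roles is read from these genes.

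Beside the higher PLEK and TUBB1, of the 13 erythroid markers tested HBD alone rose, with 15.02 ± 2.63 CPM in sgHDAC7 against 2.61 ± 0.61 in sgNT (edgeR adjusted p = 0.00139). HBD is much like its neighbour HBB in sequence, so its count is uncertain. With a term for replicate 1, 9 of the 13 were higher and 0 lower, and the same counts were found on replicates 2 and 3 alone. Over all tested genes, 800 of 13841 were higher with the term and 1356 of 13844 on replicates 2 and 3 alone. The 9 were HBD, HBA1, HBA2, HBG2, ALAS2, GYPB, EPOR, SLC4A1 and TFRC, most of them named after their values were seen. HBA1 and HBA2 are near-identical copies, as are HBG1 and HBG2, so how their reads were split is uncertain. In 11 of the 13 the ratio was above 0 within each replicate number, a share that was not computed over all tested genes. All sgHDAC7 libraries were higher than all sgNT libraries in 2 of the 13 (15.4%), against 13% of all tested genes. Mast cell and basophil markers (5 of 7 in the table) summed to 539 to 959.9 CPM in sgHDAC7 against 586 to 881 in sgNT, and 0 passed by edgeR or DESeq2, with 0 at an unadjusted p under 0.05. The fit with a term for replicate 1 had 1 of them higher and 0 lower, and replicates 2 and 3 alone had 1 higher and 2 lower. Granulocyte and monocyte markers (5 of 11 in the table) summed to 119 to 127 CPM in sgHDAC7 against 156 to 163 in sgNT, and of 3 tested 1 fell, ITGAM. On replicates 2 and 3 alone 2 of these 3 were lower and 0 higher. Lymphoid markers (3 of 7) summed to 16.4 to 23.4 CPM in sgHDAC7 against 19.4 to 30.4 in sgNT, and endothelial markers (3 of 7) to 53.1 to 78.6 CPM in sgHDAC7 against 58.3 to 107 in sgNT. The part of these markers in the levels of the 4 genes was not tested.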

How the data were processed

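The authors deposited 1 table of whole-number read counts per gene for all 6 libraries. Its name says CPM, but 100% of its values are whole and the totals differ between libraries. Per the labels' protocols, poly-T beads selected the RNA and random hexamers primed its copying. The submitters' processing notes name hg38 and edgeR 3.32.1 and state no role. Which aligner, counter, annotation and strand setting were used is not given in the sources used here. The columns named NC were taken as sgNT, the only other group, and 0 columns were left unused.

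Counts of the 13841 genes with a mean of at least 1 CPM were fitted with edgeR 4.0.16 (R 4.3.3; TMM scaling, quasi-likelihood test, group as the single term, two-sided, Benjamini-Hochberg over all tested genes, threshold 0.05). CPM values are TMM-scaled. The SE divides a log2 fold change by the root of its F value. Correlations, ratios within replicate numbers and SDs of log2 values used log2(CPM + 0.5). Gene positions and exon lengths are from GENCODE 29 (GRCh38). 12503 of the tested genes matched 1 gene model by name. Shares of a family are of summed CPM per kilobase.

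The genes and lists were chosen with earlier results of these data known. Named are the 4 genes, HDAC7, a panel of partners, up to 4 genes past the threshold per list, the 3 most abundant relatives per family and the 3 genes most like each. CD9, of the panel, is not analysed here. On simulated counts of sgHDAC7 against sgNT (13841 genes), edgeR recovered 47.7% of changes of 1.5-fold and 75.7% of those of 2-fold, with 9.09% of calls false. DESeq2 1.42.0, limma 3.58.1, other scalings and filters, a robust prior, a replicate block, a term for replicate 1, replicates 2 and 3 alone and leaving out each library were alternatives. The replicate 1 pair alone was added after seeing the data. The floor of 3 counts covers counting error only.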

Additional observations from a re-analysis of the deposited data

How the results depend on the processing

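The log2 fold changes of PLEK, TUBB1, ITGA2B and FLI1 moved by less than 1 SD between replicates under every alternative, except TUBB1 between the replicate 1 libraries alone, at 0.98. When single libraries were left out, they ran from 2.17 to 2.64 for PLEK, 0.62 to 0.80 for TUBB1, -0.22 to -0.05 for ITGA2B and -0.25 to 0.11 for FLI1. HDAC7 kept its call throughout. Over all genes, DESeq2 called 711, the replicate block 998, the term for replicate 1 1743 and replicates 2 and 3 alone 2861 genes, and leaving out single libraries gave 28 to 1595. Of the other megakaryocyte and platelet genes, these fits called 14, 24, 31, 38 and, without single libraries, 1 to 19, against 9. Sample numbers were not taken as pairs, since same-numbered libraries deviated together with r = 0.30, 0.11 and 0.10, the last just under 0.1, and replicates 2 and 3 of one guide each correlated best with the other number of the other guide. With the longest transcript as length, the sgNT levels were 151 CPM per kb for ITGA2B and 14.3 for FLI1. The causes were not tested. With 3 libraries a group, differences of 2-fold and more can also be missed. On simulated counts, drawn without a shared shift of replicate 1, 75.7% of 2-fold changes were recovered. ERG, 2.42-fold lower in sgHDAC7, did not pass with group as the single term. On the same libraries it passed with a term for replicate 1 (edgeR adjusted p = 4.6e-05). At 1 to 7 counts per library PLEK2 could not be compared.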
